A study of Bos indicus x Bos taurus with 17 samples.

Results

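The dystrophin-glycoprotein complex was described through 8 of its genes, DMD, UTRN, DAG1, SGCA, SGCB, SGCD, SNTB1 and DTNA, which were found by gene symbol alone among the 21048 genes of the count tables. All 8 had a row in both the skeletal muscle and the liver table. The complex spans the membrane of the muscle fiber. Inside the cell, dystrophin binds actin filaments, and its C-terminal part binds dystroglycan, syntrophins and dystrobrevin. In the membrane, dystroglycan and the sarcoglycans form the link, and outside the cell sugar chains on alpha-dystroglycan hold laminin of the basement membrane. Loss of dystrophin or of a sarcoglycan is known to cause muscular dystrophy, and utrophin, the close relative of dystrophin, is made in many tissues.

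RNA was sequenced from bovine fetuses of a cross between Bos indicus and Bos taurus at about day 105 of gestation. The 4 ART-Normal fetuses (ART-Normal 1, 2, 3 and 4) were produced in vitro by assisted reproduction, and the 2 Control-AI fetuses (Control-AI 2 and 4) were conceived by artificial insemination. The study describes its ART-Normal group as similar in weight to controls. All 6 are labelled healthy, and each gave 1 muscle and 1 liver library, so that 12 libraries were compared. ART-Normal 4 is in the labels and not in the list of fetuses of the study, which gives no weight for it. The text of the study takes control RNA-seq from earlier work, whereas the labels list both controls with the ART-Normal libraries, so conception group and a possible difference in preparation cannot be told apart. Total counts were 12433300 to 23578362 per library in muscle and 18454088 to 43339598 in liver. Levels are given as CPM, which are counts scaled to the size of the library after TMM normalization, a scaling that keeps the bulk of genes level between libraries.

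The tissue labels were checked against marker genes. The 8 skeletal muscle markers summed to 19384 to 29458 CPM in muscle and to 8.02 to 43.8 CPM in liver, where 4 of them (ACTA1, CKM, MYOG and MYH8) had a median under 0.5 CPM. The 7 hepatocyte markers summed to 25262 to 336054 CPM in liver and to 24.5 to 362 CPM in muscle. Both maxima of the hepatocyte sum, and the muscle marker sum of 43.8 CPM in liver, belonged to Control-AI 2. Without that fetus, the hepatocyte markers reached 50202 CPM in liver and 61.9 CPM in muscle, and the muscle markers reached 10.8 CPM in liver. The liver library of Control-AI 2 also had the lowest TMM factor, 0.75, against 0.966 to 1.04 in the other liver libraries. Control-AI 2 therefore stands apart in both tissues, and the results that rest on it are given with and without it.

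The 8 genes differ widely in size, which matters here because the reads were counted over the whole span of each gene, introns included. On ARS-UCD1.2, DMD lies on chromosome X from 109941866 to 112307209 on the plus strand, and its span of 2365344 bp is the longest but one, rank 2, of all genes in the table. SGCD covers 1111789 bp (chromosome 7, 66907514 to 68019302, plus strand), UTRN 556563 bp (chromosome 9, 81651775 to 82208337, plus strand) and DTNA 451213 bp (chromosome 24, 22130553 to 22581765, minus strand). SNTB1 covers 139320 bp (chromosome 14, 81870562 to 82009881, minus strand). These 5 genes belong to the longest 20% of the genes tested. The other 3 are shorter, DAG1 with 51203 bp (chromosome 22, 50614127 to 50665329, minus strand), SGCB with 27078 bp (chromosome 6, 67878832 to 67905909, minus strand) and SGCA with 9593 bp (chromosome 19, 36482941 to 36492533, minus strand), against a median of 17620 bp over all genes. Exonic and intronic reads were not counted apart, so a value per gene can hold reads of either kind.

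The first question was how the genes of the complex differ between muscle and liver. All 8 were higher in muscle by edgeR's quasi-likelihood test over the 12 libraries, and they had a median log2 fold change of 3.21, against -0.01 over the 12449 genes tested. Calls were common in this comparison, since 40.7% of all genes tested were called higher in muscle and 40.8% higher in liver. A gene was tested when every library of 1 tissue had at least 5 CPM, counted for this filter by library size alone and not by the TMM scale on which levels are printed. DMD, UTRN, DAG1, SGCD and SNTB1 met this in both tissues, whereas SGCA, SGCB and DTNA met it in muscle only and had to have a library below the filter in liver. For SGCB that was Control-AI 2 alone, at 4.50 CPM by library size. The count of 8 is not support for a property of the complex. In bulk tissue, fewer cells that express a gene and less RNA of it per cell cannot be told apart.

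Dystrophin, the rod-shaped protein that ties actin to the membrane, was higher in muscle than in liver, with 1 fetus as the exception. The DMD level in muscle was 632 and 928 CPM in Control-AI 2 and 4, and 1027, 947, 1102 and 933 CPM in ART-Normal 1 to 4. In liver it was 759 and 127 CPM in Control-AI 2 and 4, and 129, 132, 114 and 110 CPM in ART-Normal 1 to 4. The 5 other libraries of liver thus lay in a narrow range, and the liver library of Control-AI 2 lay among the muscle libraries, so that the tissues overlapped. DMD was higher in muscle in 5 of 6 fetuses, and Control-AI 2 went the other way. The mean was 928 ± 160 CPM (SD, n = 6) in muscle and 229 ± 260 CPM (SD, n = 6) in liver, and the log2 fold change was 2.33 (standard error 0.45, edgeR adjusted p = 0.000246). Without Control-AI 2, the means were 987 ± 75.4 CPM and 123 ± 9.90 CPM (SD, n = 5), the ratio of the means moved from 4.06 to 8.05, and the log2 fold change was 2.99 (standard error 0.10, edgeR adjusted p = 2.47e-12).

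The DMD level of the Control-AI 2 liver library was 6.19-fold that of the other 5 liver libraries (the mean of their log2 levels, turned back to a ratio), and 28 of the 11304 genes tested in liver deviated upward more in that library. It rested on 10408 counts, against 2789 to 5914 in the other liver libraries. The 8 skeletal muscle markers summed to 43.8 CPM in the same library, against 25633 CPM in the muscle of the same fetus. The smooth muscle markers summed to 191 CPM there, against 102 to 139 CPM in the other liver libraries, the fibroblast markers to 499 CPM against 162 to 410 CPM, and the Schwann cell markers to 143 CPM against 158 to 216 CPM. The endothelial markers summed to 512 CPM against 460 to 504 CPM, and the erythroid and macrophage sums lay within the range of the others. The part of these cell types in the DMD value was not tested. One listed gene, LOC521092, lies within DMD on the opposite strand, and it had 0 counts in every liver library and 0 to 11 counts in muscle. Of the other genes of the complex, SGCA was too low to be compared, and the rest were 0.79-fold (UTRN) to 1.35-fold (DAG1 and SGCD) of the other liver libraries in that library. The strand setting of the counting was not given in the sources used here, and its part in the DMD value was not tested.

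Utrophin, which binds many of the same partners as dystrophin, differed between the tissues by the least of the 8 genes. The UTRN level in muscle was 180 and 241 CPM in Control-AI 2 and 4, and 259, 262, 312 and 262 CPM in ART-Normal 1 to 4. The liver level was 157 and 175 CPM in Control-AI 2 and 4, and 220, 218, 191 and 190 CPM in ART-Normal 1 to 4. The ranges overlapped only because the muscle library of Control-AI 2 was low, while in each of the 6 fetuses muscle was above liver. The mean was 252 ± 42.6 CPM in muscle and 192 ± 24.4 CPM in liver (SD, n = 6), and the log2 fold change was 0.39 (standard error 0.09, edgeR adjusted p = 0.00133). UTRN shares 784 bp with LOC101905571 on the opposite strand, which had 103 to 568 counts per library, compared with 2151 to 9751 for UTRN.

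The ratio of DMD to UTRN counts within a library does not depend on scaling between libraries. In muscle the ratio was 3.51 and 3.86 in Control-AI 2 and 4, and 3.97, 3.62, 3.53 and 3.57 in ART-Normal 1 to 4. The liver libraries had 4.84 and 0.725 in Control-AI 2 and 4, and 0.589, 0.607, 0.595 and 0.582 in ART-Normal 1 to 4. These are counts not corrected for length, so only the tissues are compared: every muscle library had a ratio of 3.51 or more, and every liver library but that of Control-AI 2 a ratio of 0.725 or less. The muscle library of Control-AI 2 was low for both genes and kept the ratio of the other muscle libraries. The log2 ratio was larger in muscle by 2.08 on average (SD 1.25, n = 6), in 5 of 6 fetuses. By an exact two-sided sign-flip permutation test over the 6 fetuses, p was 0.0625, which did not pass 0.05, and the smallest p that 6 pairs allow is 0.0312. Without Control-AI 2, the 5 differences were 2.41 to 2.75, and 5 pairs cannot give a p below 0.0625.

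**Figure D1:**
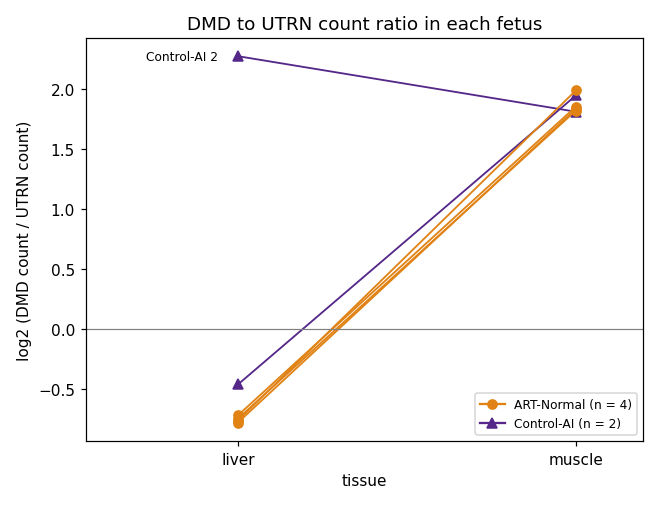
Ratio of DMD to UTRN counts (log2) in the liver and muscle library of each fetus, with a line joining the tissues of 1 fetus. All lines but that of Control-AI 2 rise from below 0 in liver to between 1.82 and 1.99 in muscle, and that line falls from 2.27 to 1.81.

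Dystroglycan, the receptor encoded by DAG1 and cut into an outer laminin-binding and an inner membrane-spanning subunit, was higher in muscle in all 6 fetuses. The DAG1 level in muscle was 419 and 312 CPM in Control-AI 2 and 4, and 327, 341, 384 and 351 CPM in ART-Normal 1 to 4. Liver had 93.6 and 73.6 CPM in Control-AI 2 and 4, and 59.0, 69.7, 69.2 and 75.0 CPM in ART-Normal 1 to 4. The lowest muscle library was well above the highest liver library, and Control-AI 2 was highest in both tissues. The log2 fold change was 2.28 (standard error 0.11, edgeR adjusted p = 7.44e-11).

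The sarcoglycans, a group of membrane proteins that sit beside dystroglycan, stood far apart between the tissues. The SGCA level in muscle was 207 and 120 CPM in Control-AI 2 and 4, and 144, 152, 160 and 177 CPM in ART-Normal 1 to 4. In liver SGCA had 5 and 0 counts in Control-AI 2 and 4, and 0, 0, 10 and 2 counts in ART-Normal 1 to 4. The 3 libraries with 0 counts allow at most 0.0666 to 0.138 CPM, the value of 3 counts. SGCA was thus at or close to 0 in liver, and its fitted log2 fold change of 10.43 (standard error 0.43, edgeR adjusted p = 1.88e-11) rests on 17 liver counts and depends on the prior count. HILS1 lies within SGCA on the opposite strand, and it had 235 counts in the muscle library of Control-AI 2 and 5 to 15 in the other muscle libraries, while SGCA had 2708 to 3641 counts in muscle.

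The SGCB level in muscle was 118 and 111 CPM in Control-AI 2 and 4, and 97.4, 125, 107 and 110 CPM in ART-Normal 1 to 4. In liver it was 6.05 and 5.20 CPM in Control-AI 2 and 4, and 8.85, 5.44, 7.82 and 6.38 CPM in ART-Normal 1 to 4. No library of liver came near the muscle range, and the log2 fold change of SGCB was 4.08 (standard error 0.14, edgeR adjusted p = 2.44e-12). The SGCD level in muscle was 117 and 166 CPM in Control-AI 2 and 4, and 172, 165, 225 and 171 CPM in ART-Normal 1 to 4. In liver it was 10.5 and 8.83 CPM in Control-AI 2 and 4, and 6.44, 5.44, 9.57 and 8.74 CPM in ART-Normal 1 to 4. SGCD was again separated between the tissues, with Control-AI 2 lowest in muscle and highest in liver, with a change of 4.37 on the log2 scale (standard error 0.19, edgeR adjusted p = 3.95e-11). The gene listed on the opposite strand within SGCD, LOC104969236, had 0 counts in all 12 libraries.

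Of the cytoplasmic proteins, beta-1-syntrophin is an adaptor that brings signaling proteins to dystrophin, and alpha-dystrobrevin is a dystrophin-related protein that binds syntrophin. The SNTB1 level in muscle was 194 and 191 CPM in Control-AI 2 and 4, and 230, 225, 280 and 248 CPM in ART-Normal 1 to 4. Liver libraries gave 127 and 114 CPM in Control-AI 2 and 4, and 129, 136, 135 and 128 CPM in ART-Normal 1 to 4. SNTB1 was separated between the tissues by a small margin, with a change of 0.82 on the log2 scale (standard error 0.08, edgeR adjusted p = 2.21e-07). The DTNA level in muscle was 120 and 147 CPM in Control-AI 2 and 4, and 149, 154, 186 and 143 CPM in ART-Normal 1 to 4. The liver values were 5.69 and 2.68 CPM in Control-AI 2 and 4, and 7.79, 7.91, 8.35 and 7.88 CPM in ART-Normal 1 to 4. DTNA was far apart between the tissues, by 4.52 on the log2 scale (standard error 0.18, edgeR adjusted p = 1.39e-11).

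**Figure D2:**
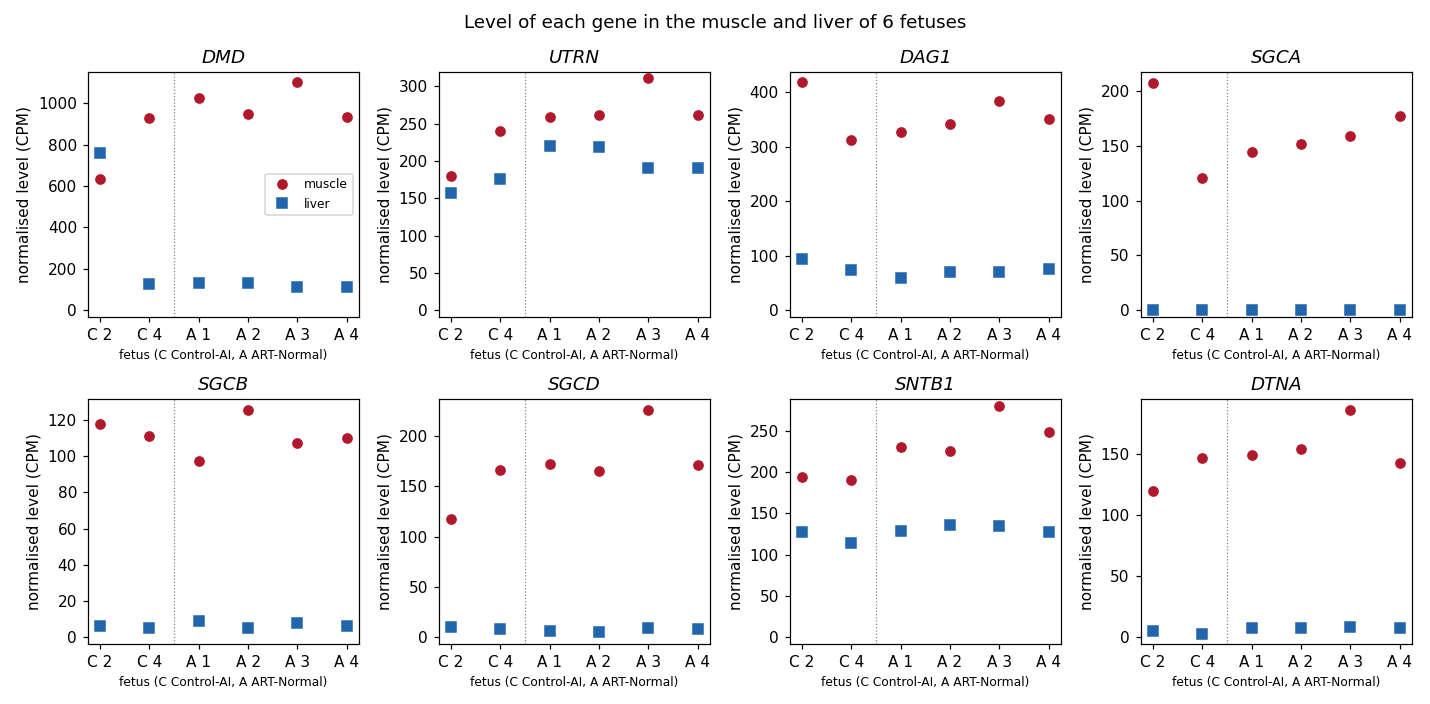
Level of each of the 8 genes (CPM, linear axis) in muscle (circles) and liver (squares) of the 2 Control-AI (C) and 4 ART-Normal (A) fetuses, with a dotted line between the groups. Muscle lies above liver in every fetus for 7 genes, and for DMD in all but Control-AI 2, where liver was 759 CPM and muscle 632 CPM.

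In 6 of the 8 genes every muscle library was above every liver library, and the exceptions were DMD and UTRN. This held for 32.9% of all genes tested. Without Control-AI 2 it held for 8 of 8 genes of the complex and for 36.3% of all genes. SGCA, SGCB and DTNA are in both counts and passed the filter in muscle only, so neither count is support for a property of the complex. The 8 genes together made up 1988 to 2755 CPM in muscle and 507 to 575 CPM in liver, except for 1160 CPM in the liver of Control-AI 2. DMD held 31.8% to 42.7% of that sum in muscle and 21.0% to 25.1% in liver, and 65.5% in the liver of Control-AI 2. UTRN held 9.06% to 11.3% of it in muscle and 34.6% to 39.2% in liver and 13.5% in the liver of Control-AI 2, so its share was larger in liver in every fetus. These are shares of counts, not corrected for length. Genes of long span leaned to muscle in general, since the longest 20% of the genes tested, those of 90232 bp or more, had a median log2 fold change of 0.63. The span therefore moves with the tissue difference, and its part in the values of DMD, UTRN, SGCD, SNTB1 and DTNA was not tested.

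Levels of different genes can be compared only per length, and the only length at hand is the span, so the order that follows is an order of counts per kb of span and not of transcripts. In muscle the mean level was 16.7 CPM per kb for SGCA, 6.95 for DAG1, 4.11 for SGCB, 1.64 for SNTB1, 0.454 for UTRN, 0.392 for DMD, 0.332 for DTNA and 0.152 for SGCD. The 3 shortest genes stood on top. In liver DAG1 led with 1.43 CPM per kb, followed by SNTB1 with 0.921, UTRN with 0.345 and SGCB with 0.245. DMD had 0.0967 CPM per kb in liver, and DTNA with 0.0149, SGCA with 0.0146 and SGCD with 0.00742 came last.

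The further genes of the pathway were taken from 4 lists. Over all genes tested, 40.7% were called higher in muscle and 40.8% higher in liver. The counts per list given below are to be read beside these shares and are not support for a property of the pathway. Of 9 other subunits in the table, 7 were tested, 6 were higher in muscle and 1 was lower. DTNB, the beta-dystrobrevin, went the other way from DTNA, with 9.90 to 19.1 CPM in muscle and 20.7 to 30.1 CPM in liver (log2 fold change -0.78, standard error 0.14, edgeR adjusted p = 0.000137). The dystrobrevin pair was therefore split between the tissues, DTNA higher in muscle and DTNB higher in liver. Of these 7 genes, 3 passed the 5 CPM filter in muscle only.

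Of 7 genes of proteins that bind the complex, 6 were tested and all 6 were higher in muscle, 4 of them after passing the filter in muscle only. CAV3, the caveolin of muscle, was 73.4 to 97.3 CPM in muscle and had 1 count in liver, in Control-AI 2, so no fold is given. ANK2, an ankyrin that takes part in placing dystrophin at the membrane, was 729 to 943 CPM in muscle and 2.36 to 5.47 CPM in liver (log2 fold change 7.86, standard error 0.22, edgeR adjusted p = 5.25e-13). Of 11 genes of extracellular ligands of dystroglycan, 9 were higher in muscle, 1 was lower and 1 did not pass, and 2 were tested through muscle only. LAMA2, the laminin chain of the muscle basement membrane, was 265 to 348 CPM in muscle and 1.34 to 4.79 CPM in liver (log2 fold change 6.67, standard error 0.26, edgeR adjusted p = 1.09e-11). LAMB2, another laminin chain, was 254 to 379 CPM and 6.12 to 13.4 CPM (log2 fold change 4.99, standard error 0.18, edgeR adjusted p = 6.34e-12).

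The sugar chains by which dystroglycan holds laminin are made with a set of enzymes, most of them in the endoplasmic reticulum and the Golgi apparatus. Of 13 genes in the table listed for this glycosylation, 12 were tested, 8 were higher in muscle, 2 were lower and 2 did not pass. The median log2 fold change was 0.69, and 2 of the 12, B4GAT1 among them, passed the filter, by library size, in muscle only. B3GALNT2, which extends the sugar chain, had the largest rise, from 13.6 to 21.0 CPM in liver to 67.6 to 79.3 CPM in muscle (log2 fold change 2.11, standard error 0.09, edgeR adjusted p = 4.63e-11). B4GAT1, which primes it for the laminin-binding repeat, was 4.75 to 8.61 CPM in liver and 21.1 to 23.0 CPM in muscle (log2 fold change 1.78, standard error 0.15, edgeR adjusted p = 4.56e-08). The 2 genes lower in muscle, POMT2 (log2 fold change -0.35) and GMPPB (log2 fold change -1.10), overlapped between the tissues.

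**Figure D3:**
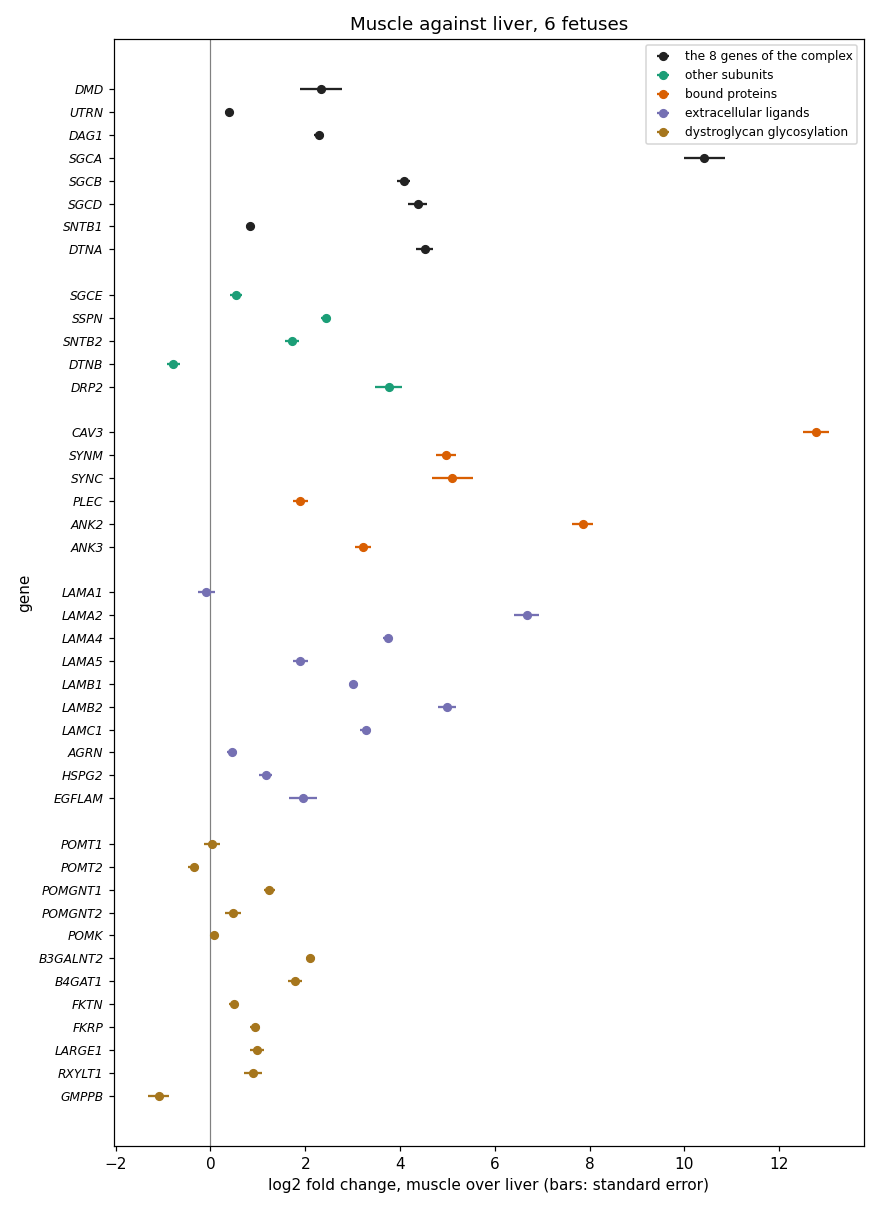
Log2 fold change of muscle over liver (points) with its standard error (bars) for the 8 genes of the complex and tested genes of the 4 further lists, from edgeR over 12 libraries. Values above 0 are higher in muscle. The 8 genes lie between 0.39 (UTRN) and 10.43 (SGCA), and DTNB, POMT2 and GMPPB are among the genes below 0.

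The second question was whether conception by assisted reproduction went with a different level of the complex. In muscle, 0 of the 8 genes passed the threshold between ART-Normal and Control-AI by edgeR's quasi-likelihood test. Over all 11695 genes tested 1 was called, which is 0.00855%, and 9.19% had an unadjusted p under 0.05. UTRN and SNTB1 were the 2 of the 8 genes with an unadjusted p under 0.05.

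In muscle the values of 3 of the 8 genes, DMD, UTRN and SNTB1, were higher in all 4 ART-Normal libraries than in both Control-AI libraries, against 7.77% of all genes tested. DMD was 933 to 1102 CPM in ART-Normal against 632 and 928 CPM in Control-AI, so the gap to Control-AI 4 was small (log2 fold change 0.37, standard error 0.18, unadjusted p = 0.0666, edgeR adjusted p = 0.576). UTRN was 259 to 312 CPM against 180 and 241 CPM (log2 fold change 0.39, standard error 0.16, unadjusted p = 0.033, edgeR adjusted p = 0.493). SNTB1 was 225 to 280 CPM against 194 and 191 CPM (log2 fold change 0.36, standard error 0.14, unadjusted p = 0.0245, edgeR adjusted p = 0.465). Of these 3, only for SNTB1 did both controls lie close together. SGCD differed by 0.38 on the log2 scale (standard error 0.18, edgeR adjusted p = 0.569) and DTNA of 0.25 (standard error 0.15, edgeR adjusted p = 0.654), and both overlapped between the groups. The 3 shorter genes had log2 fold changes of -0.05 (DAG1, standard error 0.16), -0.04 (SGCA, standard error 0.20) and -0.05 (SGCB, standard error 0.13), and also overlapped.

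The result depended on which control was kept. Without Control-AI 2, the log2 fold change was 0.11 for DMD and 0.18 for UTRN, with edgeR adjusted p = 0.979 and 0.974, and 0.36 for SNTB1 with 0.968. In the same setting SGCD had 0.14 and DTNA 0.10. In that setting 5 of the 8 genes were higher in all ART-Normal libraries than in the lone control, against 19.7% of all genes. Without Control-AI 4, DMD (log2 fold change 0.69, edgeR adjusted p = 0.0289) and UTRN (log2 fold change 0.62, edgeR adjusted p = 0.0434) passed the threshold, and 1327 of all genes did. There SGCD had 0.66 (edgeR adjusted p = 0.0506) and DTNA 0.42 (edgeR adjusted p = 0.208), while SNTB1 stayed at 0.36 (edgeR adjusted p = 0.281). The muscle library of Control-AI 2 lay below the mean log2 level of the other muscle libraries for DMD (0.64-fold), SGCD (0.66-fold), UTRN (0.68-fold), DTNA (0.77-fold) and SNTB1 (0.83-fold), which are the 5 genes of long span. It lay above them for SGCB (1.07-fold), DAG1 (1.22-fold) and SGCA (1.39-fold), the 3 shorter genes. At the other end, ART-Normal 3 had the highest muscle value for the same 5 long genes, from 1.25-fold (DMD) to 1.44-fold (SGCD) of the others.

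Over all genes, the conception difference in muscle moved with the span in the same direction. The longest 20% of the genes tested in muscle had a median log2 fold change of 0.19, and 21.6% of these genes were higher in all ART-Normal than in both Control-AI libraries, where 3 of the 5 long genes of the complex were. The shortest 20% had a median of -0.05 and a share of 2.69%. Set against Control-AI 2 alone the median of the longest 20% was 0.28, and against Control-AI 4 alone it was 0.08. The part of the span in the values of the 5 genes was not tested. Marker sums of other cell types were also read in muscle. Without Control-AI 2, the 5 fibroblast markers summed to 11864 to 15908 CPM in muscle, with 15627 CPM in Control-AI 2, and the 5 smooth muscle markers to 423 to 562 CPM, with 628 CPM in Control-AI 2. The 5 Schwann cell markers summed to 108 to 179 CPM, with 213 CPM in Control-AI 2, and the 5 erythroid markers to 22.1 to 72.2 CPM, with 10.1 CPM in Control-AI 2. Endothelial and macrophage sums of Control-AI 2 lay within the range of the others. The skeletal muscle markers of Control-AI 2 summed to 25633 CPM, within the range of the other muscle libraries. The part of these cell types in the conception values was not tested.

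**Figure D4:**
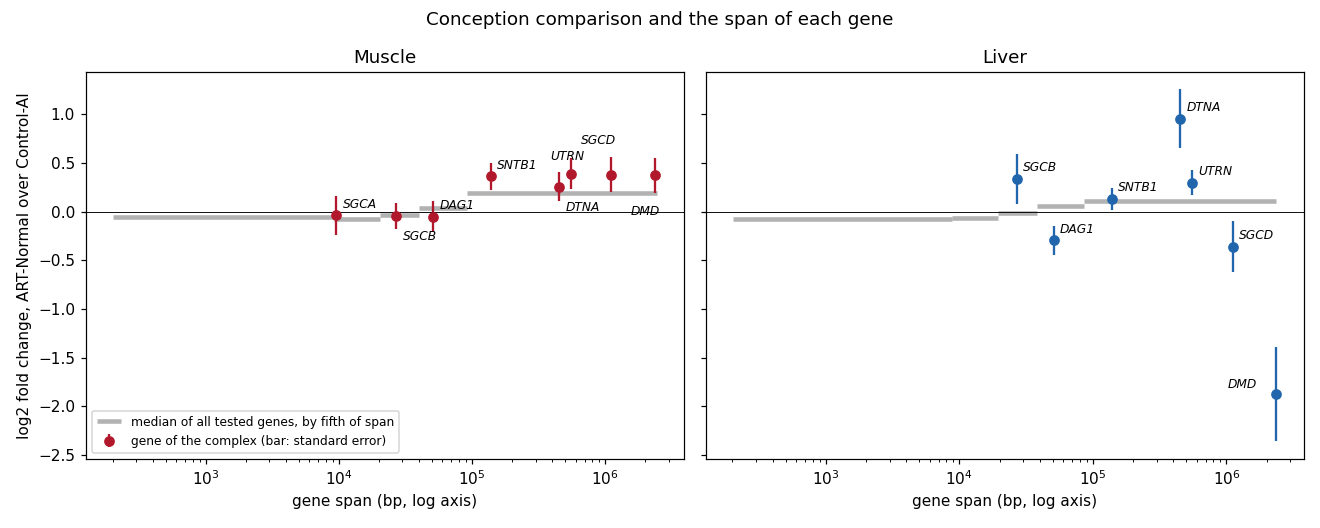
Log2 fold change from Control-AI to ART-Normal in muscle (left) and liver (right) against the span of the gene (bp, log axis), with the standard error as bars, and the median of all tested genes in each 20% of the genes by span as grey lines. In muscle the 5 genes of long span lie at 0.25 to 0.39 and the 3 shorter genes at -0.05 to -0.04; in liver DMD lies at -1.87 and DTNA at 0.95.

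In liver, 0 of the 7 genes tested passed the threshold by edgeR's quasi-likelihood test, and SGCA was too low to be tested. Of all 11304 genes tested 0 were called (0.0%), while 948 (8.39%) had an unadjusted p under 0.05, the likelihood ratio test called 89 and DESeq2 called 56. For DMD the log2 fold change was -1.87 (standard error 0.48, unadjusted p = 0.0034, edgeR adjusted p = 0.458), which came from the library of Control-AI 2. Without that fetus it was -0.05 (standard error 0.18, edgeR adjusted p = 0.999). Without Control-AI 4 it was -2.65 (standard error 0.15, edgeR adjusted p = 3.37e-06), and with the likelihood ratio test of edgeR over all libraries the adjusted p was 0.0208. The ART-Normal range of 110 to 132 CPM enclosed the 127 CPM of Control-AI 4.

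UTRN, SNTB1 and DTNA, 3 of the 7 genes, were higher in all 4 ART-Normal than in both Control-AI liver libraries, against 9.19% of all genes tested. UTRN was 190 to 220 CPM against 157 and 175 CPM (log2 fold change 0.30, standard error 0.13, unadjusted p = 0.0499, edgeR adjusted p = 0.589). DTNA was 7.79 to 8.35 CPM against 5.69 and 2.68 CPM (log2 fold change 0.95, standard error 0.30, unadjusted p = 0.0101, edgeR adjusted p = 0.511), and it was tested only because ART-Normal was above 5 CPM throughout, as was SGCB. SNTB1 was 128 to 136 CPM against 127 and 114 CPM, a difference of 0.13 (standard error 0.12, edgeR adjusted p = 0.696). DTNA differed by the most of the 3, and its 4 ART-Normal values lay within 1 CPM of each other. The others had log2 fold changes of -0.30 (DAG1, standard error 0.15), 0.34 (SGCB, standard error 0.26) and -0.36 (SGCD, standard error 0.26), and all overlapped. Of the longest 20% of genes in liver, 18.0% were higher in all ART-Normal libraries, with a median log2 fold change of 0.11. Without Control-AI 2, 4 of the 7 genes were higher than the lone control, against 17.7% of all genes. DTNA is in both counts and SGCB in the second, and both genes were tested only through ART-Normal. Neither count is therefore support for a property of the complex. For DTNA the log2 fold change without Control-AI 2 was 1.58. Without Control-AI 4, the library with 2.68 CPM, it was 0.48.

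The difference of the conception change between muscle and liver was tested as an interaction over the 12 libraries. Of 12923 genes 0 passed by edgeR's quasi-likelihood test, 711 (5.5%) had an unadjusted p under 0.05, the likelihood ratio test called 98 and DESeq2 called 37. None of the 8 genes passed. A positive value means that the log2 fold change from Control-AI to ART-Normal lay higher in muscle than in liver. With each tissue fitted alone, the log2 fold change of DMD was 0.37 in muscle and -1.87 in liver, where the change was larger. DMD had the largest interaction value, 2.22 (standard error 0.65, unadjusted p = 0.00474, edgeR adjusted p = 0.689). Leaving out Control-AI 2 gave 0.15, and leaving out Control-AI 4 gave 3.31 with edgeR adjusted p = 2.35e-05. SGCD had 0.72 (standard error 0.32, edgeR adjusted p = 0.894) and DTNA -0.74 (standard error 0.30, edgeR adjusted p = 0.857). Both moved with the control left out: without Control-AI 2 SGCD had 0.34 and DTNA -1.49, and without Control-AI 4 they had 1.13 and -0.09. For UTRN the difference was 0.08 (standard error 0.21) and for SNTB1 0.22 (standard error 0.16).

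In the 4 further lists, 0 genes were called between ART-Normal and Control-AI in either tissue by edgeR's quasi-likelihood test. Of their tested genes, 3 had an unadjusted p under 0.05 in muscle, namely 2 of 7 other subunits and 1 of 12 genes of dystroglycan glycosylation. None of the 6 bound proteins or 11 extracellular ligands tested in muscle did, and the share over all genes was 9.19%. In liver 1 of 12 genes of dystroglycan glycosylation had such a p and none of the other lists did, against 8.39% of all genes. One gene that was not tested stood out in both libraries of Control-AI 2. LARGE2, an enzyme that adds the laminin-binding sugar repeat, was 18.3 CPM in its muscle against 0.448 to 0.984 CPM in the other muscle libraries, and 8.17 CPM in its liver against 0.788 to 2.16 CPM in the other liver libraries, and it was named after its values were seen.

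The spread of the genes among fetuses differed by gene and tissue. In muscle the SD of log2 CPM over 6 libraries was largest for SGCD (0.30) and DMD (0.28) and smallest for SGCB (0.12), with a median of 0.20 over all genes tested. Without Control-AI 2 it was 0.19 for SGCD, 0.11 for DMD and 0.13 for SGCB, with a median of 0.17. In liver DMD had an SD of 1.08, larger than 99.4% of genes tested, and SNTB1 had 0.09, with 5.79% of genes below it. The DMD value came from Control-AI 2, and without that fetus its SD was 0.12, with 18.9% of genes below it. SNTB1 then had 0.10, with 13.9% of genes below it, and DTNA had 0.63. These SDs were taken of log2 of CPM plus 0.5. That narrows the spread of genes near 0, such as SGCA in liver, so the widest gene there is not named. The genes whose profile over the 12 libraries lay nearest to DMD, by the root mean square of the difference of centred log2 CPM, were HSPA12B (0.395), PLPPR3 (0.401) and IFT81 (0.41). Those nearest to UTRN were LOC523461 (0.0927), TLK2 (0.0939) and CEP350 (0.0946). The distances for DMD rested on the liver of Control-AI 2: over the 10 libraries without that fetus, the 3 nearest genes lay at 0.0746 to 0.111 from DMD and at 0.0522 to 0.0761 from UTRN.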

How the data were processed

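RNA-seq of fetal muscle and liver was analysed, with 1 library per tissue and fetus. The authors deposited raw counts per gene, without normalization, on ARS-UCD1.2. Per the labels, libraries were made with poly(A) selection and marked strand, and the submitters' processing notes name HISAT2 2.1.0, featureCounts, Cufflinks, SAMtools, FastQC 0.11.7 and edgeR 3.24.3. Whether the counting used strand was not given in the sources used here, so counts of genes that overlap on opposite strands are uncertain. The listed gene lengths are whole spans. Of the count columns, 14 matched no sample and were not used. The deposited tables of the authors' comparisons, with fold changes and p-values, were not used. Kidney was not analysed here.

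Counts were fitted with edgeR 4.0.16 in R 4.3.3 by TMM normalization and the quasi-likelihood test, with two-sided p-values and Benjamini-Hochberg adjustment over all genes tested at a threshold of 0.05. The muscle against liver fit used 12 libraries with conception group as a covariate. The conception comparisons used 6 libraries per tissue without covariates, which the same 2 controls enter in both tissues. Genes needed 5 CPM or more, by library size without TMM, in every library of 1 group. The standard error was the absolute log2 fold change divided by the root of F. Log2 CPM of the nearest profiles and the paired deviations used a prior count of 1. The spread, the ratios of 1 library to the others and the medians against 1 control used log2 of CPM plus 0.5. Tables and plots were made in Python 3.11.15 (Matplotlib 3.10.9, pandas 2.3.3), and the fits were tested on simulated data.

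The 8 genes and the lists were chosen with earlier results of these data known. From each further list were named the genes past the threshold between tissues without overlap, at most the 2 largest in each direction, and in addition the genes overlapping a gene of the complex and the 3 profiles nearest to DMD and to UTRN. POMT2, GMPPB and LARGE2 were named after their values were seen. Some of the genes this rule names are not reported here.

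Liver and muscle of 1 fetus come from the same animal and are paired. Deviations from the group mean correlated between them at r of 0.0351 to 0.33 across genes, which are not replicates. A replicate block of fetus changed no call of the 8 genes. Alternatives were RLE, upper quartile and no normalization beyond library size, the likelihood ratio test, DESeq2 1.42.0, other filters, ART-Normal 1 to 3 only, both tissues in 1 fit, the block, and leaving out each fetus. The spread and the nearest profiles without Control-AI 2 were added after seeing the data.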

Additional observations from a re-analysis of the deposited data

Results flagged for a closer look

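In 5 of the 32 groups of 4 or 6 libraries examined, 1 library stood far from the rest by Dixon's test. For independent groups, chance does this in about 1 group in 20. The groups here share libraries, and SGCA in liver was close to 0, so the count cannot be set against that rate. DMD was 632 CPM in the muscle of Control-AI 2, below the 928 to 1102 CPM of the other 5 muscle libraries. DMD was 759 CPM in the liver of Control-AI 2, above the 110 to 132 CPM of the other 5 liver libraries. Among the ART-Normal muscle libraries, UTRN was 312 CPM and SGCD 225 CPM in ART-Normal 3, above 259 to 262 CPM for UTRN and 165 to 172 CPM for SGCD in the other 3. SGCA was 0.407 CPM, or 10 counts, in the liver of ART-Normal 3, with 0 to 2 counts in the other ART-Normal liver libraries.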

How the results depend on the processing

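Between tissues, all 8 genes of the complex stayed called higher in muscle under each setting in which they were tested, and 1 gene, SGCA, was not tested with at least 10 counts in every library. In muscle, the genes called between ART-Normal and Control-AI numbered 1, and 120 with the likelihood ratio test, 106 with DESeq2, 0 with ART-Normal 1 to 3 only and 0 to 1327 when a fetus was left out, with 0 to 2 genes of the complex. In liver they numbered 0, and 6 with library size alone, 89 with the likelihood ratio test (1 gene of the complex, DMD), 56 with DESeq2, 2 with ART-Normal 1 to 3 only, 2 with both tissues in 1 fit and 0 to 830 when a fetus was left out, with 0 to 1 genes of the complex. The interaction called 0, and 98 with the likelihood ratio test, 37 with DESeq2 and 0 to 232 when a fetus was left out, with 0 to 1 genes of the complex. The largest counts came without Control-AI 4, when Control-AI 2 was the lone control and was assumed to vary like the other group. The cause of these changes was not tested.

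Same-numbered ART-Normal and Control-AI fetuses share only a number: their deviations correlated at r of -0.161 to 0.000289. The replicate block of that number called 90 genes in muscle and 6 in liver, none of the complex, and turned SGCA (0.0628) and SGCB (0.0474) to positive log2 fold changes in muscle. The replicate block of fetus called 10558 genes between tissues, against 10144, and 0 in the interaction, and changed no call of the 8 genes.

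With library size alone, which shifted the median log2 fold change of all liver genes to 0.21, the interaction turned for UTRN (-0.12), DAG1 (-0.00492) and SNTB1 (-0.000297). When a fetus was left out, log2 fold changes in muscle ranged from -0.24 to 0.16 for DAG1 and from -0.37 to 0.39 for SGCA, highest without Control-AI 2, and the interaction ranged from -0.0694 to 0.22 for UTRN, lowest without Control-AI 2, and from -4.03 (without Control-AI 2) to 2.40 for SGCA. None of these passed the threshold in either setting. Of the values of single genes, 462 kept direction and side of the threshold, 5 came to pass it and 11 turned. With library size alone, 55.8% of the genes called between tissues were higher in muscle, against 50.0%. Levels per coding length or exon were not run. With 2 controls of which 1 stands apart, differences of the size seen in muscle cannot be told from differences between fetuses.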
